A study of Mus musculus with 6 samples.

Results

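The mitochondrial uncoupling proteins were examined in microglia of mice with acute ischemic stroke (AIS). The family has 5 genes, Ucp1, Ucp2, Ucp3, Slc25a14 and Slc25a27, among 23462 named genes on the array. They were chosen by name, through the transcript accession given for each probe. This gave 9 of 56605 probes that are not controls, and 8 of them were among the 40745 probes that could be tested. Microglia were taken with a magnetic selection for the surface receptor P2RY12, and RNA was measured on 1 single-colour Agilent array per sample. The control group, PGC-1α f/f, held 3 arrays of littermates that carry a PGC-1α gene linked to eGFP, which needs the recombinase Cre to be expressed. The mPGC-1α group held 3 arrays of mice that carry, in addition, a tamoxifen-inducible Cre under the control of Cx3cr1, a gene that is active in microglia and also in other macrophages. All samples were labelled male and 10 weeks old, on a C57BL/6 background, and both groups had received tamoxifen and had undergone transient occlusion of the middle cerebral artery. The time after occlusion, and whether an array held 1 animal or a pool, are not given in the sources used here. No label says that the samples of a group came from separate animals, so p-values measure only the spread between these samples, which may be technical.

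Uncoupling proteins are carriers of the inner mitochondrial membrane. Ucp1 lets protons flow back across it in brown fat and so turns the proton gradient into heat. Ucp2 is widely expressed, including in immune cells, and has been linked to a lower output of reactive oxygen species. Ucp3 is best known from skeletal muscle. Slc25a27 (also called UCP4) and Slc25a14 (also called UCP5 or BMCP1) are more distant members that are abundant in brain. PGC-1α, encoded by Ppargc1a, was found as a partner of nuclear receptors at the Ucp1 promoter, and the comparison asks whether the family differed in microglia of a mouse built to overexpress it.

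The 250 bases before the start of Ucp1, Ucp2 and Ucp3 are shown because Ucp1 is the classical PGC-1α target and because Ucp2 and Ucp3 lie next to each other on chromosome 7. They come from RefSeq on assembly GRCm38.p6, all on the plus strand, and capitals mark the only match to a searched motif, a GC box read on the minus strand.
Ucp1, chr8:83290098-83290347: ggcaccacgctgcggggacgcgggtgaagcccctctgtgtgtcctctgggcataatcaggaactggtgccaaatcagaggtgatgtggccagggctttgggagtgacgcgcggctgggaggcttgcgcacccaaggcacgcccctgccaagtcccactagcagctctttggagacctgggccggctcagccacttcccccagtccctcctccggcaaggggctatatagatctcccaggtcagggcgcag
Ucp2, chr7:100493108-100493357: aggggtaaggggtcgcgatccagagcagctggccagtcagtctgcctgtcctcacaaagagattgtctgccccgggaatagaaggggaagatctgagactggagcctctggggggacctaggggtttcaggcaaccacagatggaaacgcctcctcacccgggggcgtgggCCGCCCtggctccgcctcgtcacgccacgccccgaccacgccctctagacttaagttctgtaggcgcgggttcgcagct
Ucp3, chr7:100472741-100472990: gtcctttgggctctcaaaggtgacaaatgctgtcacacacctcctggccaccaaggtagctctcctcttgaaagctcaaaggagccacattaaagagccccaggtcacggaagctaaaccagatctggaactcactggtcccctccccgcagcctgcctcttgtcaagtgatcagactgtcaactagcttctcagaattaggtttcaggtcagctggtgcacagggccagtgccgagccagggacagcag

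The motifs searched, on both strands, were the core element of the estrogen-related receptors (AAGGTCA), the GC box (GGGCGG), the TATA box (TATAAA) and the CCAAT box (CCAAT). Of 32851 promoters of the same length, these were present in 4.08%, 32.7%, 12.4% and 33.8%, respectively. The Ucp2 stretch held 1 GC box, and no searched motif was present in the Ucp1 and Ucp3 stretches. The GC content was 64.8% for Ucp1, 63.6% for Ucp2 and 54.8% for Ucp3, beside a median of 52.4% over all promoters. There were 12, 16 and 3 CpG dinucleotides, beside a median of 6. The order of genes around them was C2cd3, Ucp3, Ucp2, Dnajb13 and Coa4.

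Levels are given on the log2 scale, as the processed signal of a probe relative to its array's 75th percentile, so 0 is the brightness that 75% of the probes stay under. Levels of different probes are not comparable, because probes differ in how brightly they bind. That percentile lay between 702 and 1179 intensity units, between 71.0% and 86.5% of spots were well above background, and no spot was saturated. Between 549 and 4931 spots per array carried the scanner software's outlier mark, with the most on array 3 of each group, which shared the second of 2 slides. The enriched cells carried microglial markers, with all 15 of 15 well above background on all 6 arrays. The same held for all 11 neutrophil, 11 monocyte or macrophage, 11 lymphocyte, 13 oligodendrocyte and 11 astrocyte markers. This count therefore does not tell how pure the cells were. The median level of the neutrophil list was 4.67, 4.71 and 4.89 on the control arrays and 3.40, 5.09 and 4.79 on the others. That of the microglia list was between 4.33 and 4.52. The level of P2ry12, the receptor used for the selection, was between 3.94 and 4.40, and that of Tmem119 between 5.15 and 5.52.

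Some probes went against the labels. Xist, which is transcribed from the inactive X chromosome of females, was at -4.83 on control array 2 and between -0.57 and -0.11 on the other 5 arrays. Eif2s3y, a Y-linked gene, was at 0.030 on control array 2 and at or below -7.09 on the others by the same probe (A_51_P479715). By these probes 5 of the 6 arrays went against their male label, and control array 2 was the 1 array that matched it. Each member difference is also given without control array 2. Ppargc1a, the gene meant to be overexpressed, was at -1.05, -0.55 and -0.53 on the control arrays and at -1.08, -0.86 and -1.13 on the arrays labelled mPGC-1α. The difference was -0.31 (SE 0.24, adjusted p = 0.798, limma), and that of its second probe was -0.41 (SE 0.27, adjusted p = 0.769, limma). Both probes were lower in all 3 number pairs, by 0.032 to 0.66, as were 13.1% of all tested probes. Whether these probes reach the transcript of the introduced gene is not known, so they do not settle the genotype of an array. Cx3cr1, which drives the Cre, was at 4.19, 3.66 and 4.11 on control arrays and at 2.79, 2.36 and 3.13 on those labelled mPGC-1α by probe A_52_P99810. This difference of -1.23 (SE 0.24) had an adjusted p of 0.684 by limma, and with marked spots kept the other probe of Cx3cr1 gave -0.33 (SE 0.21). The Cre of this line is carried by an allele of Cx3cr1 itself, and the part of that allele in these values was not tested. The Cx3cr1 values are counted neither for nor against the labels.

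No uncoupling protein differed between the groups past the threshold. With limma across all 40745 tested probes and an adjusted p below 0.05, 0 of the 8 tested member probes and 0% of all probes were called. With the replicate numbers as a block, 0 members and 1 probe of 40564 were called (0.00247%). At an unadjusted p below 0.05 the members again gave 0 of 8, whereas 7.17% of all probes passed. Of the 8 probes, 5 were higher and 3 were lower on the arrays labelled mPGC-1α, a share of 62.5% higher beside 60.1% over all probes. Their median difference was 0.18, beside 0.083 over all probes. The smallest two-sided p that an exact permutation of 3 against 3 arrays can give is 0.1.

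**Figure D1:**
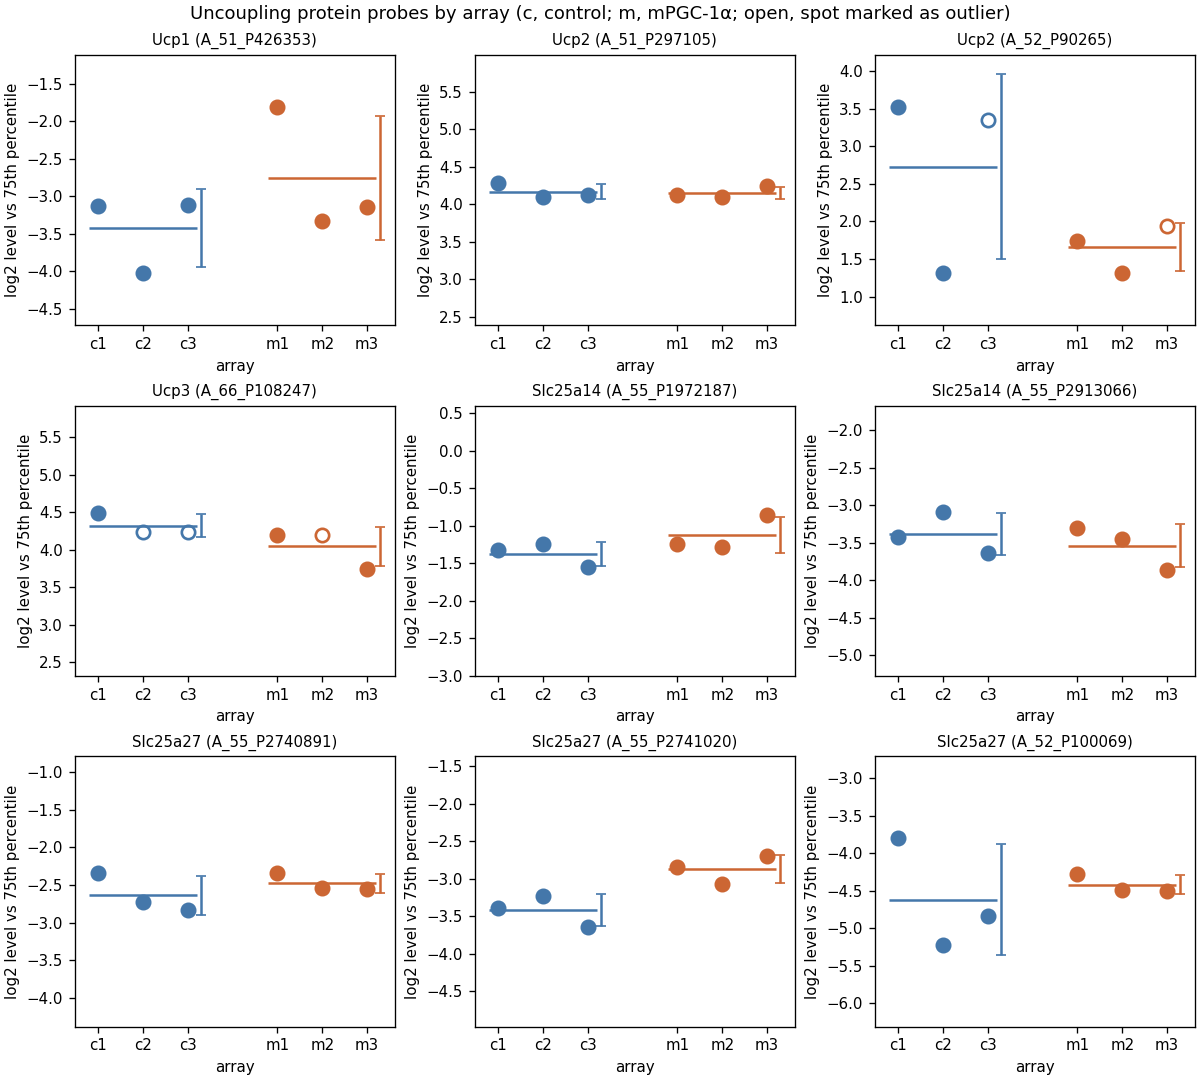
Level of each of the 9 uncoupling protein probes (y axis, log2 relative to the array's 75th percentile) on the 3 control arrays (c1 to c3) and the 3 arrays labelled mPGC-1α (m1 to m3). Each panel spans the same height, lines are means and bars are SD of the 3 values (marked spots kept, drawn open), and only Ucp3 and Slc25a27 probe A_55_P2741020 have groups that do not overlap.

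Ucp2 was the most uniform member by its brighter probe, A_51_P297105. Its level was 4.28, 4.09 and 4.13 on the control arrays and 4.12, 4.09 and 4.24 on the arrays labelled mPGC-1α. The groups overlapped fully, with means of 4.17 ± 0.10 and 4.15 ± 0.079 (SD, n = 3 each). The difference was -0.015 (SE 0.16, limma adjusted p = 0.990, exact permutation p = 0.7), and its 95% interval ran from -0.38 to 0.35. Without control array 2 it was -0.052. It was -0.19 with quantile normalization, -0.22 with normexp and quantile normalization and -0.18 with the authors' normalized values, none past the threshold. The highest and the lowest array differed 1.14-fold. The SD within groups, 0.090, was smaller than that of 98.8% of tested probes, for which the median was 0.34.

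The other Ucp2 probe, A_52_P90265, gave a very different picture of the same gene. Its level was 3.53, 1.31 and 3.35 on the control arrays and 1.74, 1.31 and 1.94 on the arrays labelled mPGC-1α, with the third value of each group from a marked spot. Control arrays 1 and 3 were high, while control array 2 lay with the mPGC-1α arrays. With marked spots left out, the means were 2.42 and 1.53 (n = 2 each) and the difference was -0.89 (SE 0.64, limma adjusted p = 0.785, 95% interval -2.39 to 0.60). With marked spots kept, the means were 2.73 ± 1.23 and 1.66 ± 0.32 (SD, n = 3), and the difference was -1.07 (SE 0.51, limma adjusted p = 0.690, exact permutation p = 0.3), or 2.09-fold lower. By replicate number the differences were -1.78, -0.0021 and -1.41. Without control array 2, with marked spots kept and with no test, the difference was -1.77. The level of the brighter probe minus that of this one was 0.76, 2.78 and 0.78 on the control arrays and between 2.31 and 2.79 on the others, so this gap was not constant over the arrays, and which of them the probes disagree on cannot be told from it. Which part of the Ucp2 transcript each probe reads is not known here.

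With marked spots kept, 1283 tested probes (3.15%) correlated with Ucp2 probe A_52_P90265 at r above 0.95 over the 6 arrays, which by this choice share its direction. The same count was 27 for the brighter Ucp2 probe, 74 for Ucp3 and 199 for Slc25a27 probe A_55_P2741020. The 3 most similar genes were Fcho2 (r = 0.999), Mttp (r = 0.999) and Slc25a30 (r = 0.999), each over 6 arrays and as a description only. Slc25a30 is the carrier most closely related to Slc25a14. Its level was 0.10, -3.06 and -0.20 on the control arrays and -2.38, -2.88 and -2.08 on those labelled mPGC-1α, a difference of -1.40 (SE 0.71, limma adjusted p = 0.718). The other Slc25a30 probe also was highest on control arrays 1 and 3, at -0.95 and -1.33, against values from -2.85 to -2.56 on the remaining 4. Among the control arrays, the low values were on array 2, the array whose sex-linked probes differed from the other 5. The 3 arrays labelled mPGC-1α, low as well, had Xist levels like control arrays 1 and 3. The part of the sex-linked difference, or of the group, in these values was not tested.

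**Figure D2:**
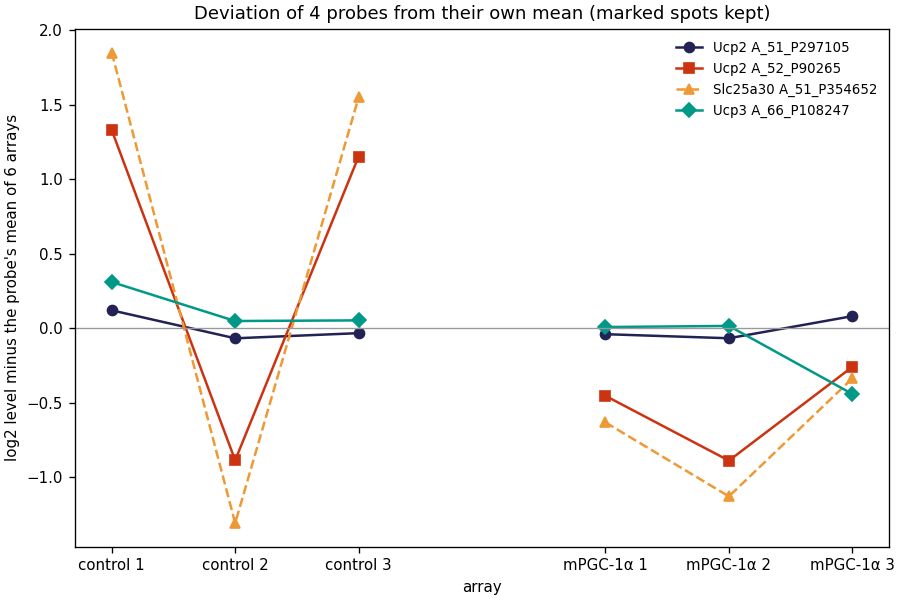
Level of 4 probes on each array (y axis, log2 units, minus the probe's own mean over the 6 arrays, marked spots kept). Ucp2 probe A_52_P90265 and Slc25a30 were high on control arrays 1 and 3 and low on the other 4, whereas the brighter Ucp2 probe stayed within a 1.14-fold range.

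Ucp3, the neighbour of Ucp2, had a level of 4.50, 4.23 and 4.24 on the control arrays and 4.19, 4.20 and 3.74 on the arrays labelled mPGC-1α. The spots of control arrays 2 and 3 and of mPGC-1α array 2 were marked, which left 1 control value, so Ucp3 could not be tested with those spots left out. With them kept, the means were 4.32 ± 0.15 and 4.05 ± 0.26 (SD, n = 3), and the groups did not overlap, although the closest arrays, at 4.23 and 4.20, nearly met. Among tested probes with 6 unmarked values, which do not include Ucp3, 11.5% had groups that did not overlap, and 4.66% did so with lower values. From the 3 unmarked spots alone the difference was -0.53, with no test. With all 6 values the difference for Ucp3 was -0.28 (SE 0.19, limma adjusted p = 0.758, exact permutation p = 0.1, the smallest possible), a 1.21-fold lower level. By replicate number it was -0.30, -0.033 and -0.49, and lower values in all 3 pairs were seen for 13.1% of all tested probes. Without control array 2 it was -0.32, with no test. The genes most like Ucp3 over the 6 arrays were Tmc7 (r = 0.997), Dgkh (r = 0.988) and Dpp6 (r = 0.987).

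Ucp1 was dim but well above background on all 6 arrays, with processed intensities from 43.6 to 216 units. Its level was -3.13, -4.02 and -3.11 on the control arrays and -1.81, -3.33 and -3.14 on the arrays labelled mPGC-1α. A single array, mPGC-1α array 1, stood above all others, and control array 2 stood below them. The means were -3.42 ± 0.52 and -2.76 ± 0.83 (SD, n = 3), a difference of 0.66 (SE 0.45, limma adjusted p = 0.772, exact permutation p = 0.6, 95% interval -0.35 to 1.68) or 1.58-fold. Without mPGC-1α array 1 the difference was 0.19, without control array 2 it was 0.36, and over all arrays left out in turn it ran from 0.19 to 0.95. It was 1.01 on the slide with arrays 1 and 2 of each group and -0.030 on the other slide. The SD within groups, 0.69, was larger than that of 89.9% of tested probes. Eaf1 (r = 0.992), Epb41l3 (r = 0.986) and M6pr (r = 0.985) had the most similar pattern. Markers of adipocytes, including brown ones, are set beside it. Of 10 adipocyte genes tested, 6 had a higher mean and 4 a lower one; the median was 0.15, and 0 were at an unadjusted p below 0.05, beside 64.0% higher, a median of 0.11 and 6.09% over all genes. Cidea, a lipid droplet protein of brown fat, differed by -0.021 (SE 0.35), and Dio2, which activates thyroid hormone, by 0.67 (SE 0.32, limma adjusted p = 0.710). Adrb3, with the largest difference of the 10, went the other way, by -0.91 (SE 0.66, limma adjusted p = 0.784).

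**Figure D3:**
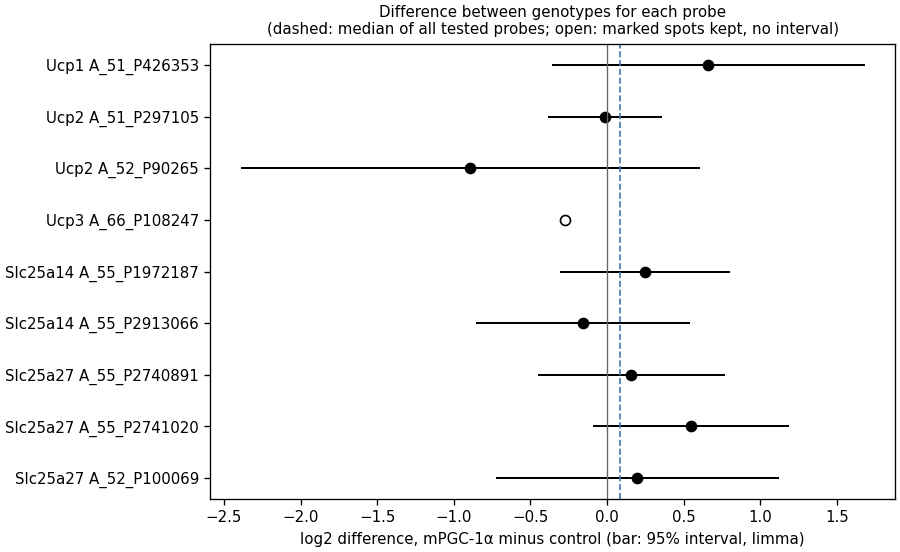
Difference in level between groups for each probe (x axis, log2, mPGC-1α minus control), with the 95% interval from limma as a bar and the median of all tested probes, 0.083, as a dashed line. All 8 intervals include 0, and the interval is narrowest for the brighter Ucp2 probe; Ucp3 is drawn open, from marked spots kept, without an interval.

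Slc25a14 was read by 2 probes with different accessions, and they differed in sign. The brighter probe, A_55_P1972187, had a level of -1.33, -1.25 and -1.55 on the control arrays and -1.24, -1.29 and -0.85 on the arrays labelled mPGC-1α. The groups overlapped, and mPGC-1α array 3 was the highest of the 6. The difference was 0.25 (SE 0.24, limma adjusted p = 0.839, exact permutation p = 0.2, 95% interval -0.30 to 0.79). It was 0.021 on the slide with arrays 1 and 2 and 0.70 on the other, 0.11 without mPGC-1α array 3 and 0.31 without control array 2. The dimmer probe, A_55_P2913066, had a level of -3.42, -3.09 and -3.64 on the control arrays and -3.31, -3.45 and -3.86 on the others, a difference of -0.16 (SE 0.31, limma adjusted p = 0.926, exact permutation p = 0.5) that was -0.0085 without control array 2. Averaged over both probes, the Slc25a14 difference was 0.045. The genes most like its brighter probe were 4921517D22Rik (r = 0.995), Zfp953 (r = 0.994) and Mavs (r = 0.992).

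Slc25a27 was read by 3 probes, all dim and all well above background on the 6 arrays. The brightest, A_55_P2740891, had a level of -2.34, -2.72 and -2.84 on the control arrays and -2.33, -2.54 and -2.56 on the arrays labelled mPGC-1α, with a difference of 0.16 (SE 0.27, limma adjusted p = 0.914, exact permutation p = 0.4, 95% interval -0.45 to 0.76). It was 0.055 without control array 3, 0.11 without control array 2, 0.085 without mPGC-1α array 1 and 0.30 without control array 1. Nol8 (r = 0.993), Qrsl1 (r = 0.992) and Myo18b (r = 0.978) were most like it. The second probe, A_55_P2741020, had a level of -3.39, -3.23 and -3.64 on the control arrays and -2.84, -3.07 and -2.69 on the others. Here the groups did not overlap, as for 6.80% of tested probes with 6 unmarked values in the higher direction. The difference was 0.55 (SE 0.28, unadjusted limma p = 0.081, adjusted p = 0.718, exact permutation p = 0.1, the smallest possible), or 1.46-fold, with a 95% interval from -0.083 to 1.18. It was higher in all 3 number pairs, by 0.54, 0.15 and 0.95, as were 19.3% of all tested probes. Without control array 2 the difference was 0.65 (SE 0.26, limma adjusted p = 0.203).

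The third Slc25a27 probe, A_52_P100069, ranged from -5.22 to -3.80 on the control arrays and from -4.50 to -4.27 on those labelled mPGC-1α, so its control arrays spread wider than the difference of 0.20 (SE 0.41, limma adjusted p = 0.932, exact permutation p = 0.7). Without control array 2, which was the lowest, it was -0.10. Averaged over the 3 probes, the Slc25a27 difference was 0.30 (limma adjusted p = 0.838). Over the 6 arrays the brightest and the third probe moved alike (r = 0.849), while r was 0.485 between the brightest and the second probe and 0.877 between the second probe and Slc25a14 probe A_55_P1972187. These correlations are descriptions over arrays that share their scaling.

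Markers of other brain cells, given beside these brain-enriched members, had higher means on the arrays labelled mPGC-1α. Of 15 neuron markers 14 did so, 9 of them at an unadjusted p below 0.05, with a median difference of 0.83. Over all genes 64.0% had a higher mean, 6.09% were at an unadjusted p below 0.05 and the median was 0.11. The median level of the neuron list was -2.34, -2.04 and -2.32 on the control arrays and -1.17, -0.63 and -1.70 on the others, and these did not overlap. Its summed signal, as log2, ran from 5.41 to 6.11 on the control arrays and from 6.09 to 6.33 on the others, which did overlap. Snap25, the brightest of the list, was at 5.22 to 5.94 and at 5.89 to 6.10 by its brighter probe, a difference of 0.30 (SE 0.21). Its other probe differed by -1.28 (SE 0.81), with control arrays 1 and 3 highest. Of the neuron list, 14 markers were well above background on all 6 arrays and none was below it on every array. All 13 oligodendrocyte and all 10 tested astrocyte markers had a higher mean as well, with median differences of 0.93 and 0.82, whereas the microglia list had a median difference of 0.048. Without control array 2, the higher means numbered 14 of 15 for neurons, 12 of 13 for oligodendrocytes and 10 of 10 for astrocytes. With all 6 arrays, no gene of these lists passed an adjusted p of 0.05 by limma. Without control array 2, where 2102 of all probes were called, calls within these lists were not counted. The part of other brain cells in the Slc25a27 and Slc25a14 values was not tested. In such mixed RNA, a change in the number of cells of a type and a change in RNA per cell cannot be told apart.

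**Figure D4:**
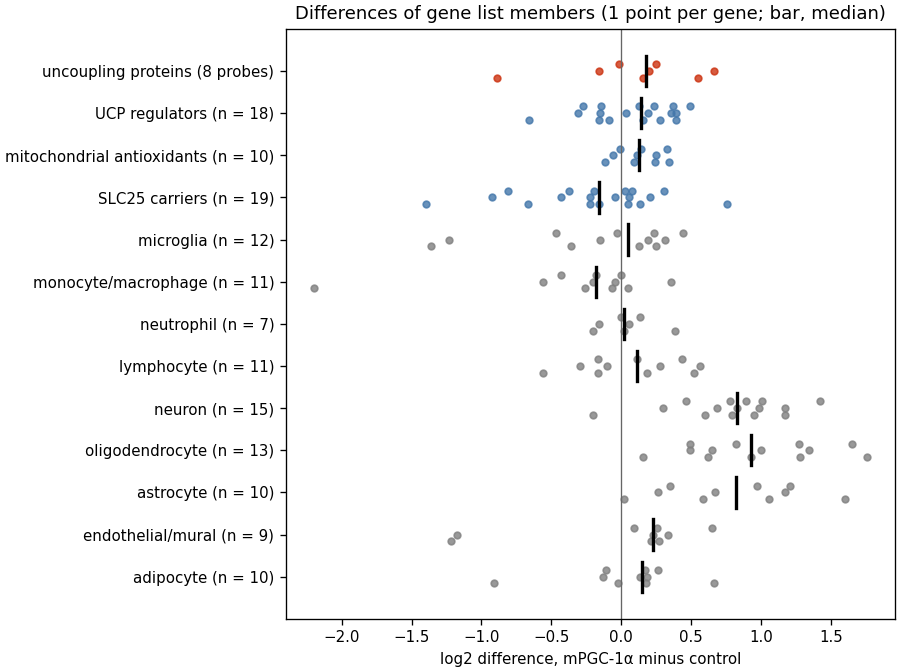
Difference between groups (x axis, log2, mPGC-1α minus control) for the 8 tested uncoupling protein probes and, with 1 probe per gene, for the genes of 3 pathway lists and 9 cell type lists; black bars are medians. Uncoupling proteins had a median of 0.18, and the neuron, oligodendrocyte and astrocyte lists had medians of 0.83, 0.93 and 0.82.

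The regulators of the family did not differ past the threshold either. Of 18 regulators (PGC-1 coactivators, estrogen-related receptors, PPARs, their partners and related factors) 11 had a higher mean and 7 a lower one. The median of their differences was 0.14, with 0 genes at an unadjusted p below 0.05, beside 64.0% higher, a median of 0.11 and 6.09% over all genes. There were 13 higher and 5 lower, with a median of 0.23, once control array 2 was left out. Esrrg, a receptor that PGC-1α coactivates, had a level of -2.03, -1.48 and -1.46 on the control arrays and -2.85, -1.84 and -2.27 on the others, a difference of -0.66 (SE 0.33, limma adjusted p = 0.715). Esrra, its relative, was at 2.66, 3.09 and 2.51 and at 3.10, 3.27 and 3.06, a difference of 0.39 (SE 0.20, limma adjusted p = 0.722). The groups overlapped for both receptors. By replicate number Esrrg differed by -0.82, -0.36 and -0.81 and Esrra by 0.44, 0.17 and 0.56, and with the replicate block their adjusted p was 0.346 and 0.437 (limma). Of all tested probes, 13.1% were lower and 19.3% were higher in all 3 pairs.

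Antioxidant genes, which act on the oxidants that uncoupling is thought to limit, gave 7 higher and 3 lower of 10 tested genes, with a median of 0.13 and 0 at an unadjusted p below 0.05, beside the shares over all genes given above. With marked spots kept and 1 probe per gene, 12 could be tested and 1 was at an unadjusted p below 0.05. This was Cat (catalase), named after its values were seen, with -1.04 (SE 0.26, limma adjusted p = 0.663). A further probe of Txnrd2, also named after its values were seen, gave -1.08 there (SE 0.38, limma adjusted p = 0.663). The brightest tested Txnrd2 probe differed by -0.11 with marked spots left out. Leaving out control array 2 gave 8 higher and 2 lower with a median of 0.29. The smallest p-values belonged to Glrx2, a mitochondrial glutaredoxin, with a difference of 0.33 (SE 0.17, limma adjusted p = 0.729), and to Txn2, the mitochondrial thioredoxin, with 0.34 (SE 0.22, limma adjusted p = 0.766). Sod2, the mitochondrial superoxide dismutase, differed by 0.14 (SE 0.27) and Gpx1, a glutathione peroxidase, by 0.12 (SE 0.22).

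Other carriers of the same SLC25 family gave 8 higher and 11 lower of 19 tested genes, with a median of -0.16 that became 0.024 with marked spots kept and -0.028 without control array 2. Over all genes 64.0% were higher. Both genes at an unadjusted p below 0.05, 10.5% of the list beside 6.09% of all genes, were lower. With marked spots kept, 10 were higher and 10 lower of 20 tested genes. Of these 1 was at an unadjusted p below 0.05, 5% beside 6.31% of all genes. Slc25a11, the oxoglutarate carrier, was at 2.90, 2.46 and 3.20 on the control arrays and at 2.23 and 2.13 on the 2 arrays labelled mPGC-1α with an unmarked spot, a difference of -0.67 (SE 0.26, limma adjusted p = 0.686). Slc25a20, the carnitine and acylcarnitine carrier, differed by -0.81 (SE 0.34, limma adjusted p = 0.690), and its control values of 0.064, -1.16 and -0.11 again had control array 2 apart from the other 2. The adenine nucleotide carrier Slc25a4 differed by -0.19 (SE 0.27, 2 unmarked arrays per group), and with marked spots kept its other probe differed by 0.082 (SE 0.23). Slc25a5, a second such carrier, could be fitted only with its 3 marked spots kept. There it differed by 0.27 (SE 0.17, limma adjusted p = 0.749) and its groups did not overlap. Of tested probes with 6 unmarked values, 6.80% did not overlap in the higher direction and 11.5% in either direction.

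**Figure D5:**
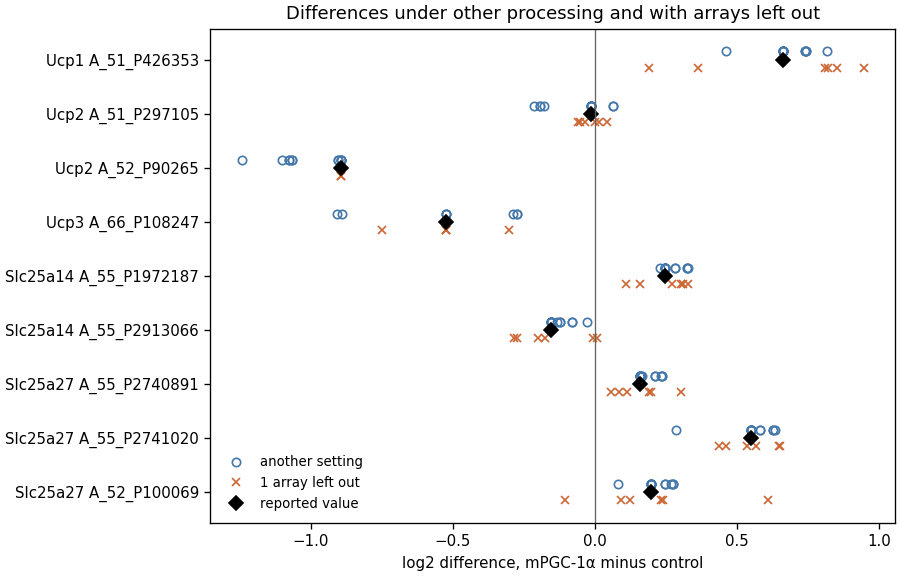
Difference between groups for each uncoupling protein probe (x axis, log2, mPGC-1α minus control) as reported (diamonds; Ucp3 from its 3 unmarked values), under other processing settings (circles) and with 1 array left out (crosses). Signs turned for the brighter Ucp2 probe, the dimmer Slc25a14 probe and the third Slc25a27 probe, and Ucp2 probe A_52_P90265 has fewer crosses because it could not be tested without some arrays. The crosses of that probe leave out only arrays whose spots were marked already.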

How the data were processed

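Per spot, the files deposited by the authors give a linear intensity in 1 green channel from Feature Extraction 11.5.1.1. The authors subtracted background and detrended within each array. The labels name Cy3 as dye and the labelling protocol Cy5. The authors' series matrix holds log2 values for 46731 probes, normalized in GeneSpring, and was used as an alternative.

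Levels were log2 of the processed signal minus each array's 75th percentile over all probes that are not controls. The tools were R 4.3.3 and its package data.table (release 1.17.8). Spots marked as outliers were left out of the tests, and values called "kept" include them. Tested probes had at least 2 values per group and, in at least 1 group, a signal well above background wherever the spot was unmarked. Probes were named through RefSeq gene names (GRCm38.p6), which matched 33767 of 56605 probes (59.7%). The comparison used limma 3.58.1 with an intensity trend in eBayes (two-sided, Benjamini-Hochberg over all tested probes, threshold 0.05) and, for member probes, with an exact permutation test over 20 assignments. The procedure was tested on simulated data.

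The members and lists were chosen with earlier results of these data known. All member probes were named, and of each pathway list the 2 genes with the smallest p, with genes picked by role (Ppargc1a, Cx3cr1, Slc25a30, Slc25a4, Slc25a5, Sod2, Gpx1), the 3 genes most like each lead probe and the brightest marker of a cell type list. Lists of monocyte or macrophage, neutrophil, lymphocyte and endothelial or mural markers had median differences of -0.18, 0.021, 0.12 and 0.23. The genes most like the other member probes, the sex-linked genes, Tmem119, P2ry12, Cidea, Adrb3 and Slc25a30's second probe were named after values were seen. Deviations from the group mean correlated at 0.247, 0.224 and 0.171 between arrays with the same replicate number and between -0.337 and 0.035 otherwise, so the numbers were taken to pair samples. The labels give the numbers but name no pairing. Number 3 was also the only number on the second slide. Control array 2 differed from mPGC-1α array 2 in its sex-linked probes. Alternatives were quantile normalization, normexp (offset 50) on the median spot and background intensity, the series matrix, other filters and handling of marked spots, slide or replicate number as a block, eBayes without trend and leaving out each array.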

Additional observations from a re-analysis of the deposited data

How the results depend on the processing

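Under every alternative run, 0 of the uncoupling protein probes that could be tested in it passed an adjusted p of 0.05 by limma. The lowest adjusted p of any member probe was 0.104, for Ucp2 probe A_52_P90265, over alternatives that ran from there to 1.000. Ucp1, Ucp2 probe A_52_P90265, Ucp3, Slc25a14 probe A_55_P1972187 and Slc25a27 probes A_55_P2740891 and A_55_P2741020 kept their direction under all alternatives run for them. For Ucp2 probe A_52_P90265 these runs left out only control array 3 or mPGC-1α array 3. Both spots were marked already, so its value stayed at -0.89. Without control array 1, the remaining unmarked control value, 1.31, would lie below the mPGC-1α mean of 1.53. For Ucp3, leaving out control array 2, control array 3 or mPGC-1α array 2 also removed only marked spots and changed nothing. The sign of the brighter Ucp2 probe turned to 0.061 with the percentile taken over unmarked spots only, with and without the replicate block, both settings chosen after seeing the data. With 1 array left out, it ran from -0.060 to 0.042, Slc25a14 probe A_55_P2913066 from -0.29 to 0.0048 and Slc25a27 probe A_52_P100069 from -0.10 to 0.61. The cause was not tested. Ucp3 was -0.53 from its unmarked values, -0.91 with these after quantile normalization, and -0.28 with marked spots kept.

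Over all probes, 0 were called as reported (2921 at an unadjusted p below 0.05), 1 with the replicate block, 1 with the replicate block and marked spots kept, and 1715 with the replicate block and the percentile over unmarked spots, the last 2 chosen after seeing the data. Between 91.6% and 96.0% of marked spots lay above the percentile, so leaving them out of it raised levels by 0.031 to 0.50, most on mPGC-1α array 3, and moved the median difference of all probes from 0.083 to 0.15. Leaving out 1 array gave between 0 and 2102 called probes, with 2102 without control array 2 and 0 of the members that could be tested among them. In that run Ucp2 probe A_52_P90265 and Ucp3 could not be tested, because each had only 1 unmarked control value left. The replicate block changed no call of a member. Having 3 arrays per group limits the precision.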
